A study of Mus musculus with 16 samples.

Results

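The voltage-gated sodium and calcium channel genes were taken as every gene whose symbol is Scn followed by a digit and a or b, or begins with Cacna1, Cacna2d or Cacnb. Of 22337 gene rows, 32 met this rule: 30 as spelled, and Scn7a and Cacna1g, whose symbols stood in capitals and were matched by gene identifier. They comprised 10 sodium channel pore subunits, 4 sodium channel beta subunits, 10 calcium channel pore subunits, 4 alpha2delta subunits and 4 calcium channel beta subunits. RNA came from the nucleus accumbens, a ventral part of the striatum, of male C57BL/6 mice, an inbred strain. All groups shared strain, sex and an exposure of 4 days, to saline as the control, to arecoline (an areca nut alkaloid that activates muscarinic receptors), to caffeine (an adenosine receptor antagonist) or to nicotine (an agonist of nicotinic acetylcholine receptors). Each group had 4 libraries, 16 in all, with total counts from 9.04 M to 24.32 M a library. The labels give no age, dose or route, and do not say whether a library was 1 animal or a pool, so p-values cover only the library-to-library spread, which may be technical.

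Sodium channel pore subunits open on depolarization and carry the rising phase of the action potential, and their beta subunits set gating and placement in the membrane. Calcium channel pore subunits turn depolarization into calcium entry that drives transmitter release and signalling to the nucleus, while alpha2delta and beta subunits bring them to the surface and shape their currents. Most neurons of the nucleus accumbens are medium spiny neurons, GABAergic projection cells that rest at hyperpolarized potentials and fire when driven by strong excitatory input.

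The libraries differed in ways the groups did not share, and these values stand before the results. The summed level of 10 medium spiny neuron markers, in CPM (counts scaled to a common library size, here by trimmed means, TMM), was 2006, 1803, 8518 and 2104 in saline replicates 1 to 4. It was 456, 6454, 8547 and 458 with arecoline, 628, 710.4, 492 and 1689 with caffeine, and 993, 807, 1191 and 1229 with nicotine. Saline replicate 3 and arecoline replicates 2 and 3 thus held the 3 highest sums. The dopamine receptor gene Drd1 was detected in all 16 libraries, while Drd2 lay between 0.199 and 1.28 CPM in 5 of them, so defining markers of the labelled tissue were low there. The sum of 6 cortical excitatory neuron markers ran the other way, at 112 CPM in saline replicate 3 and 209 in arecoline replicate 3, against 835 to 1077 over the caffeine and nicotine libraries. Nicotine replicate 2 held 718 CPM of 5 olfactory sensory neuron markers, where the other libraries held at most 47.7, and the highest sums of fibroblast (480.4 CPM) and mural (154 CPM) markers. Of the 12 marker lists, 2 had a gene past an adjusted p of 0.05 in edgeR's quasi-likelihood test: 4 of 6 oligodendrocyte markers (Aspa, Mbp, Mog and Trf) and 1 of 5 astrocyte markers (Aldh1l1) were lower with caffeine than with saline, and Trf differed among the 4 groups. In bulk RNA, fewer cells of a type and less RNA per cell cannot be told apart. The part of these differences in the results that follow was not tested.

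Of the 32 genes, 29 passed the filter on low counts, and the caffeine libraries differed from the saline libraries in 2 of them. Scn1a, a sodium channel pore gene best known from fast-spiking interneurons, fell 1.59-fold, and Cacna2d2, an alpha2delta gene whose protein binds gabapentin, fell 2.94-fold. These 2 genes made up 6.90% of the 29, where 4.08% of all 14674 genes tested passed in this comparison and 2.09% passed in the lower direction. By edgeR, none of the 29 passed for arecoline against saline, where 0.0136% of all genes did, or for nicotine against saline, where the background was 0%. None passed for arecoline against nicotine (background 0.0886%), arecoline against caffeine (0%), caffeine against nicotine (0%) or any difference among the 4 groups (1.14%). At an unadjusted p under 0.05, edgeR's counts were 4 of 29 for arecoline, 9 for caffeine and 7 for nicotine against saline, with 15.7%, 24.6% and 12.2% of all genes. They were 7 for arecoline against nicotine, 9 for arecoline against caffeine, 0 for caffeine against nicotine and 10 for any difference, with 18.2%, 15.8%, 9.30% and 23.4% of all genes. DESeq2 on the same counts called 0, 5 and 1 of the genes for arecoline, caffeine and nicotine against saline, 3 and 2 for arecoline against nicotine and caffeine, 0 for caffeine against nicotine and 6 for any difference. Over all 14674 genes, DESeq2 called 448, 1474 and 105 for arecoline, caffeine and nicotine against saline, 609 and 375 for arecoline against nicotine and caffeine, 5 for caffeine against nicotine and 1649 for any difference. The median log2 fold change of the 29 genes was -0.17 with arecoline, -0.18 with caffeine and -0.04 with nicotine, beside 0.00, -0.02 and 0.02 over all genes. The 3 comparisons share the saline libraries.

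**Figure D1:**
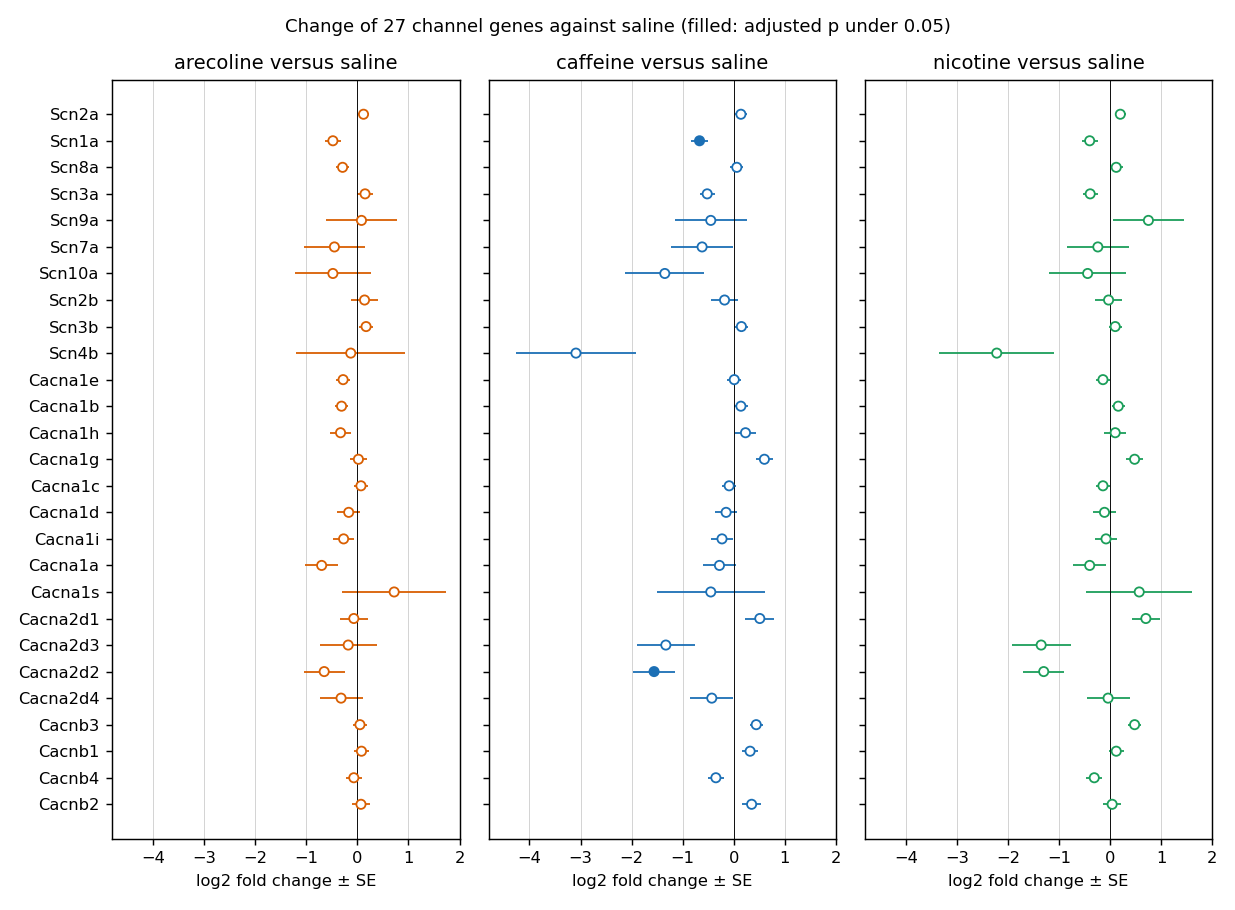
Log2 fold change against saline (x axis, with the standard error as the bar) of 27 of the 29 genes that passed the filter, for arecoline, caffeine and nicotine; filled points passed an adjusted p of 0.05. Only Scn1a and Cacna2d2 with caffeine are filled, and Scn4b with caffeine (-3.09) lies farthest from 0, with a wide error.

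The results turn on a few genes, whose promoters are printed here because Scn4b, Cacna2d2 and Cacna2d3 were highest in the same 3 libraries and Scn1a was lower with caffeine. Each window runs from 250 bases before to 50 bases after the annotated start (RefSeq, GRCm38.p6), and 24 of the 32 genes had at least 1 window, 34 in all. They are chr9:45138374-45138673 on the plus strand for Scn4b, chr9:107399630-107399929 on the plus strand for Cacna2d2, chr14:29721815-29722114 on the minus strand for Cacna2d3 and chr2:66440788-66441087 on the minus strand for Scn1a. Sequences read 5′ to 3′ along the gene, and capitals mark the GC box GGGCGG or its reverse complement.
Scn4b: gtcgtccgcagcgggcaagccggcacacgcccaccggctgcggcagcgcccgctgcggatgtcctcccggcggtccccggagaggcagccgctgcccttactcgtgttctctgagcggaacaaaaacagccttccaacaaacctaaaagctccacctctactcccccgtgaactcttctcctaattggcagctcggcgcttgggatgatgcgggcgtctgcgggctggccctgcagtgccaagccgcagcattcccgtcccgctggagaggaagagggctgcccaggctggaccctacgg
Cacna2d2: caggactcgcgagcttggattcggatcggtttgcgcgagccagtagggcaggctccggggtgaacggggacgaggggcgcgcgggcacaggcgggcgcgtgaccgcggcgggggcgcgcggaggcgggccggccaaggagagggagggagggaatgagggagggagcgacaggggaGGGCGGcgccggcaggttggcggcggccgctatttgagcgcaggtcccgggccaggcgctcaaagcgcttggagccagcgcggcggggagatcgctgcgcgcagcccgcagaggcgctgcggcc
Cacna2d3: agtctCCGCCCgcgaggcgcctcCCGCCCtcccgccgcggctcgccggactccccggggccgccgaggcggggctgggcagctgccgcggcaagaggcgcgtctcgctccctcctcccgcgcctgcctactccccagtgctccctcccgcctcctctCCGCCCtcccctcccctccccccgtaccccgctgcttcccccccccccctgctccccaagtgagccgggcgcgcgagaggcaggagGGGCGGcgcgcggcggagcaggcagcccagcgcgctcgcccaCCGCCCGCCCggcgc
Scn1a: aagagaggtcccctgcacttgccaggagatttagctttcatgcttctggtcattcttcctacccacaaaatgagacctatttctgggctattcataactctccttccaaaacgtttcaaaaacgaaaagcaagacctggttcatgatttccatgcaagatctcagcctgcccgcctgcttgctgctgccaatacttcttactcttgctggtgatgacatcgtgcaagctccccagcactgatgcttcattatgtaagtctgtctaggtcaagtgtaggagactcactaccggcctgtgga
The window of Scn1a held 5 CG dinucleotides, against 26 in Scn4b, 43 in Cacna2d2 and 41 in Cacna2d3, where the quartiles over 32851 mouse promoter windows were 3, 7 and 20. On both strands, Cacna2d3 held 6 GC boxes, of which a pair overlaps, and Cacna2d2 held 1, a motif that 35.7% of all windows and 14 of the 34 channel windows carried. Neither TATAAA (13.6% of all windows, 2 of 34) nor TGACG, the core of the cyclic AMP response element (20.8%, 6 of 34), was in these 4 windows. None of the 3 motifs was in the windows of all of Scn4b, Cacna2d2 and Cacna2d3.

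Among sodium channel pore genes, Scn2a was the most abundant per length, at 48.9 ± 6.73 FPKM (fragments per kilobase, scaled for sequencing depth, SD, n = 16), and took 47.4 ± 4.94% of the summed FPKM of the 10 genes. Scn1a followed at 22.2 ± 5.99 and Scn8a at 20.6 ± 3.62 FPKM over all libraries, and Scn3a stood at 10.1 ± 2.70 FPKM. The order of Scn1a and Scn8a was not the same in every group: with saline every Scn1a value (29.6 to 33.4 FPKM) was above every Scn8a value (16.9 to 27.6 FPKM), while with caffeine the mean of Scn8a was the higher (20.4 ± 1.91 against 17.2 ± 4.47 FPKM, SD, n = 4). Scn2a encodes the channel of the axon initial segment in young and principal neurons, Scn8a that of mature initial segments and nodes of Ranvier, and Scn3a a channel that is highest before birth.

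Scn1a (chromosome 2, 66270778 to 66440840, minus strand, GRCm38) stood at 106, 119, 95.2 and 97.9 CPM in saline replicates 1 to 4, 62.7, 77.8, 80.6 and 77.8 with arecoline, 46.6, 65.6, 58.8 and 91.8 with caffeine and 77.7, 66.9, 86.8 and 85.8 with nicotine. Every saline library lay above every library of the other 3 groups. The group means were 105 ± 10.9 CPM (SD, n = 4) with saline and 65.7 ± 19.1 with caffeine, a difference of -0.67 ± 0.16 (SE) on the log2 scale with an edgeR adjusted p of 0.033. Against saline, arecoline gave -0.48 ± 0.16 (adjusted p = 0.170) and nicotine -0.40 ± 0.16 (adjusted p = 0.346) in the same edgeR fit, and neither passed. Scn1a held 27.1 ± 2.87% of the summed FPKM of the pore genes in the saline libraries (SD, n = 4), where it held 19.7 ± 2.13% under arecoline, 18.3 ± 2.69% under caffeine and 19.9 ± 3.09% under nicotine. The call with caffeine was lost without saline replicate 2 (adjusted p = 0.101) or without caffeine replicate 1, 2 or 3 (0.119, 0.096 and 0.076, edgeR). Without the 4 libraries that stood apart (saline 3, arecoline 2 and 3, nicotine 2), the log2 fold change was -0.72 ± 0.17 with an edgeR adjusted p of 0.017. Oligodendrocyte markers, summed, were 5371 to 6321 CPM with saline and 2607 to 4191 CPM with caffeine. Medium spiny neuron markers were also lower with caffeine (492 to 1689 CPM) than with saline (1803 to 8518 CPM). With arecoline the oligodendrocyte sum ran from 3373 to 7091 CPM, where Scn1a was 62.7 to 80.6 CPM. The sum of 5 interneuron markers (Pvalb, Sst, Vip, Npy and Lhx6) was 221 to 766 CPM with saline and 694 to 1023 CPM with caffeine. Pvalb alone was 16.5 ± 9.72 CPM with saline and 18.8 ± 10.4 with caffeine (SD, n = 4). The part of any of these lists in the Scn1a result was not tested.

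Scn2a stood at 272, 330.3, 252 and 342 CPM in saline replicates 1 to 4, 325, 288, 316 and 369 with arecoline, 302, 342, 319 and 352 with caffeine and 308, 319.7, 370.4 and 379 with nicotine. Its highest library was 1.50 times its lowest, the narrowest ratio among the 29 genes, and the 4 groups overlapped. Scn8a stood at 154, 208, 154 and 211 CPM in saline replicates 1 to 4, 134, 171, 144 and 145 with arecoline, 181, 198, 168 and 211 with caffeine and 174, 209, 223 and 186 with nicotine. The arecoline libraries (134 to 171 CPM) lay below the nicotine libraries (174 to 223 CPM), but the difference did not pass (log2 fold change -0.41 ± 0.13, edgeR adjusted p = 0.122).

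Scn3a ranged from 43.2 to 104 CPM, and its difference of caffeine from saline was -0.52 ± 0.15 on the log2 scale (edgeR adjusted p = 0.061). All its arecoline libraries (70.3 to 104 CPM) lay above all its caffeine libraries (43.2 to 66.7 CPM), with a log2 difference of 0.66 ± 0.15 that missed the threshold (edgeR adjusted p = 0.111). DESeq2 called Scn3a for caffeine against saline, for arecoline against caffeine and against nicotine, and for any difference. The other sodium channel pore genes were scarce. Scn10a, known from peripheral pain-sensing neurons, stood at 2.11, 0.568, 2.24 and 0.487 CPM in saline replicates 1 to 4, 0.132, 1.98, 1.53 and 0.261 with arecoline, 0.387, 0.543, 0.165 and 1.04 with caffeine and 0.603, 0.642, 1.42 and 1.28 with nicotine. These values rest on 238 counts over all 16 libraries, with 2 to 35 in each, and the 4 groups overlapped. Scn9a, also a gene of peripheral sensory neurons, reached 33.4 CPM in nicotine replicate 2, the library with the olfactory sensory neuron markers, against 2.23 to 11.2 CPM in the other 15. Scn7a, an atypical member of the family linked to sodium sensing, lay between 0.261 and 2.46 CPM. Scn4a of skeletal muscle (1 count in all 16 libraries) and Scn11a of sensory neurons (26 counts) did not pass the filter.

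**Figure D2:**
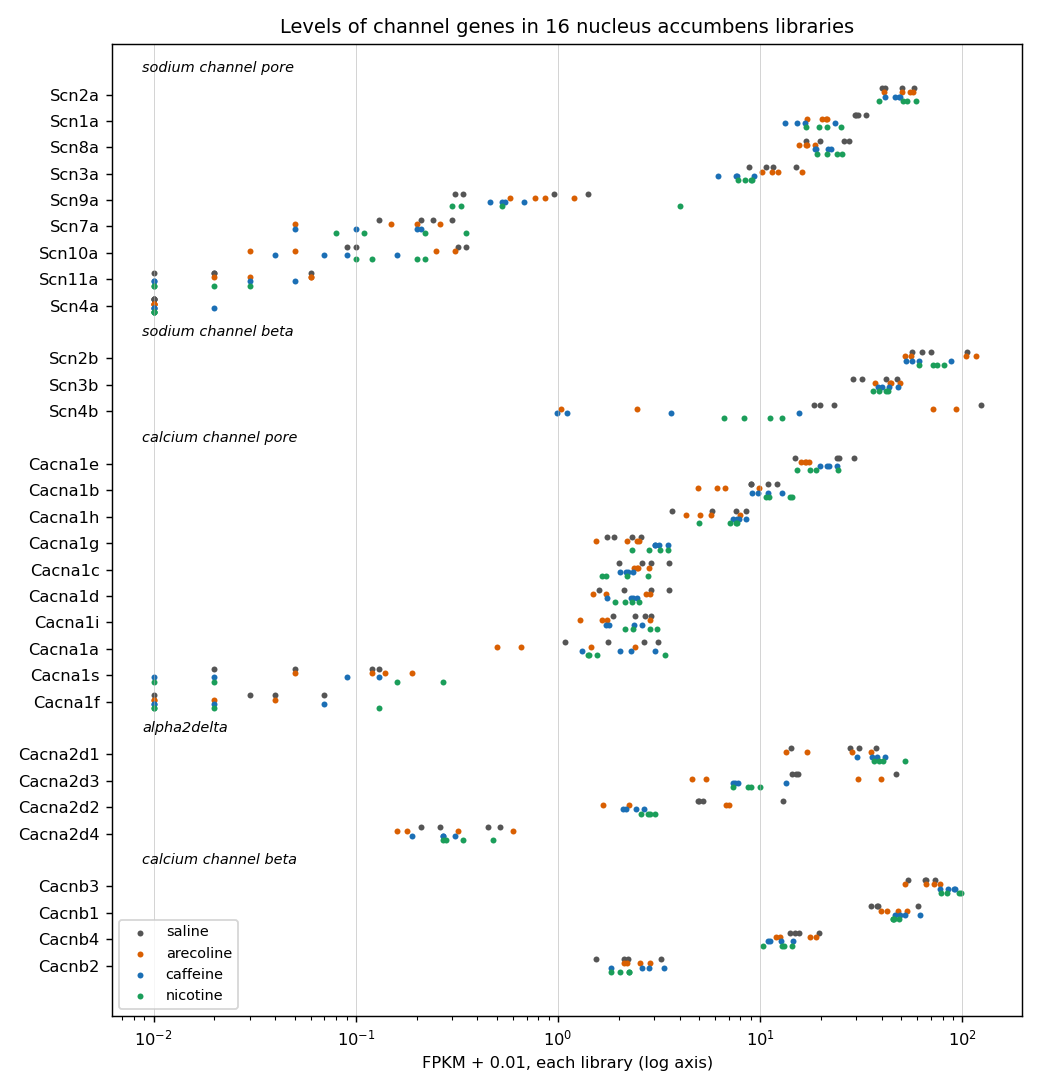
FPKM + 0.01 of 30 of the 32 genes in each of the 16 libraries (x axis, log scale), grouped by subunit class and coloured by group. Scn2a, Scn2b, Cacnb1 and Cacnb3 lie highest, and Scn4b spreads from 0.980 to 124 FPKM.

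Of the sodium channel beta genes, Scn2b had the highest level, 73.3 ± 20.7 FPKM (SD, n = 16), while Scn3b stood at 40.9 ± 5.59 and Scn4b at 25.9 ± 36.9 FPKM. The products of Scn2b and Scn4b are bound to the pore by a disulfide bond and that of Scn3b is not. By edgeR, none of the 4 passed against saline with any compound in the fit of all 16 libraries.

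Scn4b, which is linked to resurgent sodium current and is abundant in striatal projection neurons, stood at 95.7, 118, 616 and 99.2 CPM in saline replicates 1 to 4, 5.10, 366, 467 and 12.4 with arecoline, 5.08, 18.6, 5.62 and 79.6 with caffeine and 34.6, 41.1, 67.0 and 56.9 with nicotine. The highest library was 121 times the lowest, the widest ratio of the genes detected in every library. Saline replicate 3 and arecoline replicates 2 and 3, the libraries richest in medium spiny neuron markers, held the 3 highest values, and the arecoline group split into 2 libraries at 5.10 and 12.4 CPM and 2 at 366 and 467 CPM. Every caffeine and every nicotine library lay below every saline library, yet the log2 fold changes of -3.09 ± 1.17 with caffeine (edgeR adjusted p = 0.122) and -2.22 ± 1.13 with nicotine (edgeR adjusted p = 0.447) did not pass. For arecoline the value was -0.13 ± 1.07 with all libraries (edgeR adjusted p = 0.969), and -3.55 ± 0.93 without the 4 that stood apart, which passed (edgeR adjusted p = 0.038) with 2 arecoline libraries left. The 4 left out include the 3 libraries with the highest Scn4b, so this pass depends on the choice of libraries and is no separate evidence. Without those 4, caffeine gave -1.94 ± 0.66 (edgeR adjusted p = 0.072).

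Scn2b lies 8.3 kb upstream of Scn4b on chromosome 9, on the same strand, and stood at 293, 261, 424 and 228 CPM in saline replicates 1 to 4, 207, 427, 473 and 225 with arecoline, 222, 254, 230.1 and 358 with caffeine and 299, 240.1, 339 and 306 with nicotine. Its 3 highest libraries were those of Scn4b, but its highest was 2.28 times its lowest. The ratio of Scn4b to Scn2b in FPKM was 1.17 in saline replicate 3 and 0.0186 in caffeine replicate 1, so the neighbours did not keep a fixed ratio.

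Scn3b stood at 119, 129.9, 188 and 162 CPM in saline replicates 1 to 4, 171, 149, 186 and 168 with arecoline, 149, 191, 164 and 161 with caffeine and 152, 153, 173 and 165 with nicotine. Its 4 groups overlapped, and its log2 fold changes against saline were 0.17 ± 0.13, 0.15 ± 0.13 and 0.10 ± 0.13 with arecoline, caffeine and nicotine.

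**Figure D3:**
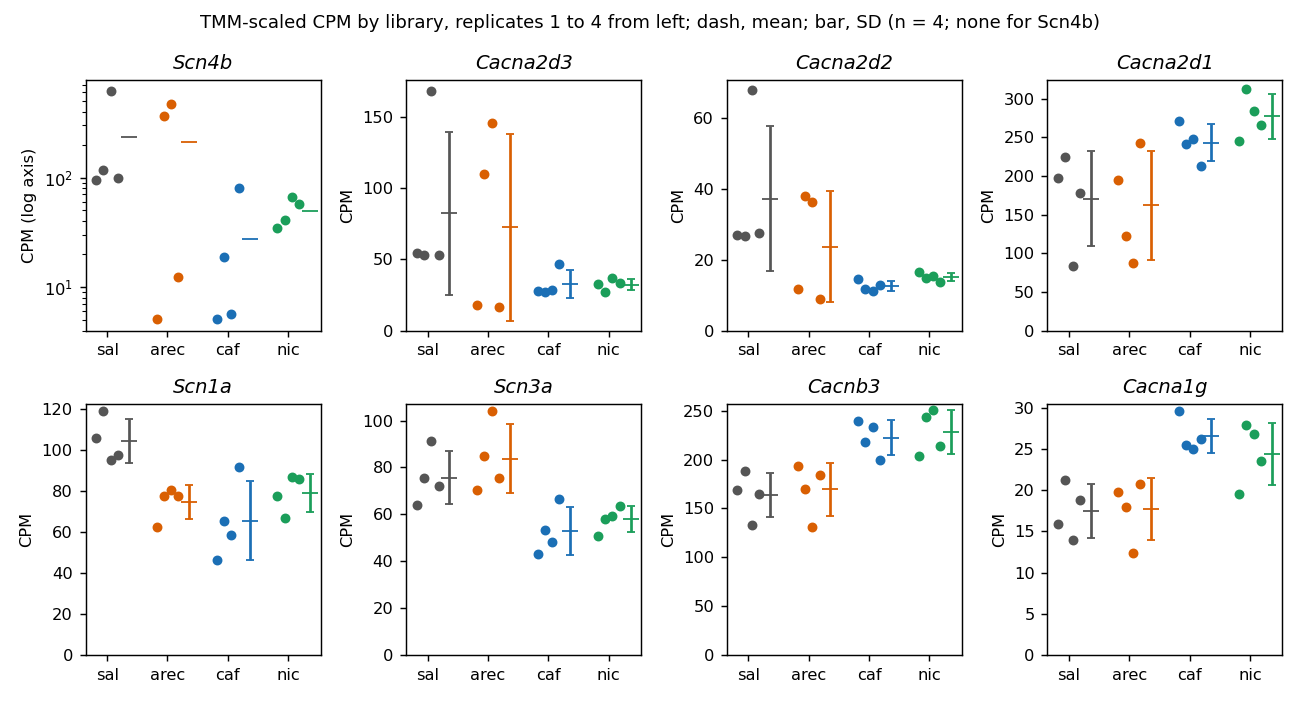
TMM-scaled CPM of 8 channel genes in each library (points, replicates 1 to 4 from left), with the group mean (dash) and SD (bar, n = 4, not drawn for Scn4b, whose axis is logarithmic). Scn4b, Cacna2d3 and Cacna2d2 are high in saline replicate 3 and arecoline replicates 2 and 3, Cacna2d1 is lowest there, and all saline points of Scn1a (95.2 to 119 CPM) lie above the others.

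Among calcium channel pore genes, Cacna1e, which encodes the R-type channel, was highest at 20.1 ± 4.18 FPKM (SD, n = 16), followed by Cacna1b of the N-type channel at 10.1 ± 2.67 and Cacna1h of the T-type family at 6.71 ± 1.55 FPKM. By edgeR, none of the 9 that passed the filter passed the test against saline with any compound.

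Cacna1e stood at 146, 225, 225 and 243 CPM in saline replicates 1 to 4, 156, 188, 184 and 161 with arecoline, 205, 232, 199 and 207 with caffeine and 149, 208, 213 and 189.6 with nicotine. Its groups overlapped with saline, and the log2 fold changes were -0.28 ± 0.14, 0.01 ± 0.14 and -0.14 ± 0.14 with arecoline, caffeine and nicotine. Cacna1b, which serves transmitter release at presynaptic terminals, stood at 41.6, 55.3, 52.1 and 58.9 CPM in saline replicates 1 to 4, 36.5, 46.3, 46.6 and 38.5 with arecoline, 55.6, 60.5, 46.7 and 65.6 with caffeine and 55.5, 68.6, 55.1 and 53.9 with nicotine. All its arecoline libraries (at most 46.6 CPM) lay below all its caffeine (46.7 or more) and nicotine (53.9 or more) libraries, and the log2 differences of -0.44 ± 0.13 and -0.47 ± 0.13 missed the threshold (edgeR adjusted p = 0.154 and 0.098). In FPKM the arecoline and caffeine libraries overlapped, with arecoline replicate 2 (9.85) above caffeine replicates 1 (9.72) and 2 (9.15). DESeq2 called Cacna1b for arecoline against nicotine and for any difference. Cacna1h stood at 31.2, 56.2, 69.7 and 37.6 CPM in saline replicates 1 to 4, 34.9, 39.5, 47.5 and 32.9 with arecoline, 56.2, 65.0, 52.0 and 54.7 with caffeine and 39.3, 61.8, 54.3 and 53.9 with nicotine. Its saline libraries alone spanned its whole range, from 31.2 to 69.7 CPM.

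The other T-type genes, Cacna1g and Cacna1i, stood at 2.60 ± 0.600 and 2.27 ± 0.544 FPKM. Cacna1g was 25.0 to 29.6 CPM with caffeine and 13.9 to 21.3 CPM with saline, with a log2 fold change of 0.60 ± 0.17 (edgeR adjusted p = 0.053). DESeq2 called this difference (adjusted p = 0.015), and edgeR did so without the 4 libraries that stood apart (0.51 ± 0.14, adjusted p = 0.032). The cortical excitatory neuron markers were also higher in every caffeine library (847 to 1077 CPM) than in every saline library (112 to 802 CPM), and their part in this difference was not tested. The L-type genes Cacna1c and Cacna1d and the P/Q-type gene Cacna1a stood at 2.39 ± 0.477, 2.29 ± 0.547 and 1.87 ± 0.868 FPKM. Cacna1a was between 2.85 and 10.9 CPM. Cacna1s, the skeletal muscle gene, had 128 counts over all libraries and 0 in 2 of them, and the retinal gene Cacna1f, with 19 counts, did not pass the filter. Cacna1c, Cacna1d and Cacna1h overlap tabulated genes on the other strand (Dcp1b, Chdh and Dcp1a, and Tpsg1), and the labels do not say whether counting used strand.

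The order of the alpha2delta genes was not the same in every library. Cacna2d1 had the highest level, 32.3 ± 10.4 FPKM (SD, n = 16), followed by Cacna2d3 at 15.2 ± 12.7, Cacna2d2 at 4.15 ± 2.90 and the retinal gene Cacna2d4 at 0.309 ± 0.129 FPKM.

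Cacna2d2 (chromosome 9, 107399612 to 107529343, plus strand, GRCm38) stood at 26.9, 26.7, 67.8 and 27.5 CPM in saline replicates 1 to 4, 11.7, 38.1, 36.2 and 8.88 with arecoline, 14.6, 11.7, 11.3 and 12.9 with caffeine and 16.6, 14.8, 15.3 and 13.8 with nicotine. Every caffeine library was below every saline library, and so was every nicotine library. The group means were 37.2 ± 20.4 CPM (SD, n = 4) with saline and 12.6 ± 1.49 with caffeine, a difference of -1.56 ± 0.41 (SE) on the log2 scale with an edgeR adjusted p of 0.042. The difference with nicotine was -1.30 ± 0.40 (edgeR adjusted p = 0.248), and that with arecoline, whose libraries split into 2 low and 2 high, was -0.65 ± 0.40 (edgeR adjusted p = 0.443). Without the 4 libraries that stood apart, both passed, at -0.83 ± 0.15 with nicotine (edgeR adjusted p = 0.035) and -1.39 ± 0.17 with arecoline (edgeR adjusted p = 0.001, 2 libraries). Those 4 include the 3 libraries with the highest Cacna2d2, so these passes depend on the choice of libraries and are no separate evidence. Without saline replicate 3, the highest library, the caffeine difference was -1.09 ± 0.37 and did not pass (edgeR adjusted p = 0.118). The call was also lost without saline replicate 2 (adjusted p = 0.075), without any 1 of the caffeine libraries (0.118, 0.115, 0.084 and 0.077) and without nicotine replicate 1, 3 or 4 (0.055, 0.058 and 0.055), all by edgeR. With limma on log2(FPKM + 0.1) it was lost as well (-1.42 ± 0.40, adjusted p = 0.058). Without all 4 libraries that stood apart, the edgeR value was -1.10 ± 0.14 (adjusted p = 8.4e-04). The medium spiny neuron markers, summed, were 1803 to 8518 CPM with saline and 492 to 1689 CPM with caffeine, and their part in this result was not tested.

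Cacna2d3 (chromosome 14, 28904943 to 29721864, minus strand, GRCm38) stood at 54.7, 52.7, 168 and 53.3 CPM in saline replicates 1 to 4, 17.8, 109.8, 146 and 16.8 with arecoline, 28.1, 27.0, 28.7 and 46.9 with caffeine and 32.4, 26.8, 36.8 and 33.2 with nicotine. The 3 libraries rich in medium spiny neuron markers held 109.8 to 168 CPM and the other 13 held 16.8 to 54.7. Caffeine and nicotine each lay wholly below saline, with log2 fold changes of -1.33 ± 0.57 and -1.35 ± 0.58 that did not pass (edgeR adjusted p = 0.166 and 0.365). Without the 4 libraries that stood apart, the differences were -0.72 ± 0.16 with caffeine, which passed (edgeR adjusted p = 0.013), -0.65 ± 0.17 with nicotine (edgeR adjusted p = 0.101) and, with 2 arecoline libraries left, -1.63 ± 0.21 (edgeR adjusted p = 0.0011, against -0.18 ± 0.56 and 0.914 with all libraries). Those 4 include the 3 libraries with the highest Cacna2d3, so these values depend on the choice of libraries and are no separate evidence. Lrtm1, a gene on the other strand within Cacna2d3, passed with caffeine (-2.25, edgeR adjusted p = 0.029), at 6.95 to 15.6 CPM with saline and 1.06 to 3.73 CPM with caffeine. The labels do not say whether counting used strand, and whether the pair shared any reads was not tested.

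Cacna2d1, whose protein is the main target of gabapentin in pain, stood at 197, 225, 83.3 and 178 CPM in saline replicates 1 to 4, 195, 122, 87.5 and 243 with arecoline, 271, 241, 248 and 213 with caffeine and 245, 313, 284 and 266 with nicotine. It ran the other way, with its 3 lowest values in the 3 libraries where Cacna2d3 was highest. All nicotine libraries (245 to 313 CPM) lay above all saline libraries (83.3 to 225 CPM), with a log2 fold change of 0.70 ± 0.28 (edgeR adjusted p = 0.343). Its share of the summed alpha2delta FPKM was 18.9% in saline replicate 3, 31.2% in arecoline replicate 2 and 22.1% in arecoline replicate 3, and 57.1% to 84.6% in the other 13 libraries. Cacna2d3 held 63.0%, 55.7% and 65.7% in those 3 libraries. Cacna2d3 thus led the alpha2delta genes in 3 of 16 libraries, which belonged to 2 groups, and Cacna2d1 led in the other 13.

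**Figure D4:**
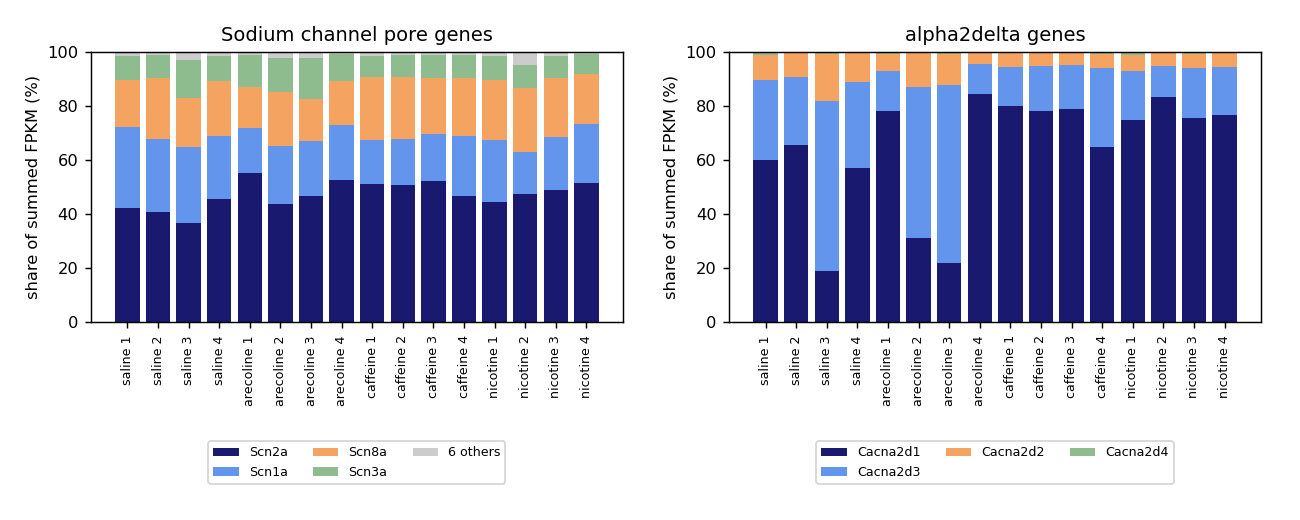
Share of the summed FPKM (y axis, %) in the 16 libraries. The left panel shows the most abundant sodium channel pore genes with the rest pooled, and the right panel shows each alpha2delta gene. Scn2a takes 36.9% to 55.3% of the sodium channel pore sum, while Cacna2d1 is at 18.9% in saline replicate 3 and Cacna2d3 leads there and in arecoline replicates 2 and 3.

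The pattern of these 3 libraries was followed through all 29 genes. In 6 of them, or 20.7%, the 3 highest libraries were saline replicate 3 and arecoline replicates 2 and 3: Scn4b, Cacna2d3, Cacna2d2, Scn2b, Scn3a and Cacnb4. Over all 14674 genes the share was 5.00%, or 733 genes. Cacna2d1 alone of the 29 (3.45%) had its 3 lowest libraries there, beside 538 of all genes (3.67%). No test was made of these shares.

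**Figure D5:**
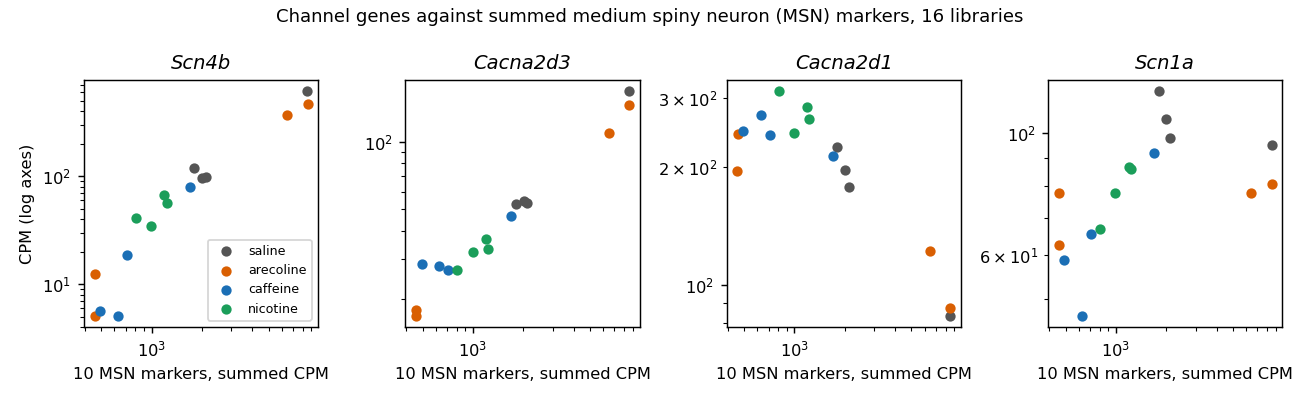
CPM of Scn4b, Cacna2d3, Cacna2d1 and Scn1a (y axes, log scale) against the summed CPM of 10 medium spiny neuron markers (x axes, log scale) in the 16 libraries, coloured by group. Scn4b and Cacna2d3 are highest and Cacna2d1 lowest in the 3 libraries with 6454 to 8547 CPM of markers, while Scn1a is highest in saline libraries with 1803 to 2104 CPM.

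Calcium channel beta genes, which encode cytoplasmic subunits that carry the pore to the membrane, included Cacnb3 at 77.1 ± 14.1 FPKM (SD, n = 16), which differed from Scn2b (73.3 ± 20.7) by less than their spread. The mean of Cacnb3 was the lower with saline (64.8 ± 8.24 against 74.2 ± 22.2 FPKM, SD, n = 4) and arecoline (67.3 ± 11.3 against 82.3 ± 33.2), and the higher with caffeine (86.6 ± 6.69 against 64.5 ± 15.9) and nicotine (89.5 ± 10.0 against 72.2 ± 8.55). Cacnb1, known from excitation-contraction coupling in muscle, stood at 47.0 ± 7.51, Cacnb4, the gene mutated in the lethargic mouse, at 14.1 ± 2.73 and Cacnb2 at 2.35 ± 0.506 FPKM.

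Cacnb3 stood at 169, 188, 133 and 165 CPM in saline replicates 1 to 4, 193, 170.1, 131 and 184 with arecoline, 239.8, 218, 233 and 199 with caffeine and 204, 244, 250.5 and 214 with nicotine. Every caffeine library (199 or more) and every nicotine library (204 or more) lay above every saline library (at most 188 CPM). The log2 fold changes were 0.44 ± 0.13 with caffeine (edgeR adjusted p = 0.060) and 0.48 ± 0.13 with nicotine (edgeR adjusted p = 0.239), and 0.05 ± 0.13 with arecoline. DESeq2 called the caffeine and nicotine differences (adjusted p = 0.017 and 0.047). Without the 4 libraries that stood apart, edgeR called the caffeine difference (0.35 ± 0.10, adjusted p = 0.034). The cortical excitatory neuron markers, summed, were 847 to 1077 CPM with caffeine and 835 to 980.1 CPM with nicotine, above the saline libraries (112 to 802 CPM). Their part in the Cacnb3 differences was not tested.

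Cacnb1 stood at 125, 124, 193 and 114 CPM in saline replicates 1 to 4, 134, 159, 171 and 123 with arecoline, 205, 174, 152 and 162 with caffeine and 161, 143, 153 and 148 with nicotine. Saline replicate 3, at 193 CPM, stood apart from the other saline libraries (114 to 125 CPM), and the log2 fold change with caffeine was 0.32 ± 0.15 (edgeR adjusted p = 0.208). The difference passed by edgeR without that library, and without all 4 that stood apart it was 0.51 ± 0.10 (edgeR adjusted p = 0.0083). The library left out was the highest of the saline group, so these passes depend on the choice of libraries and are no separate evidence. Cacnb4 stood at 124, 115, 156 and 125 CPM in saline replicates 1 to 4, 95.4, 145, 152 and 102 with arecoline, 91.5, 105, 90.9 and 119 with caffeine and 108, 82.0, 120.4 and 107 with nicotine. Its caffeine difference was -0.35 ± 0.16 on the log2 scale (edgeR adjusted p = 0.192), and the caffeine and saline libraries overlapped. Cacnb2 ranged from 5.66 to 12.1 CPM.

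Counted over all 29 genes, every caffeine library lay above every saline library for 2 genes, Cacnb3 and Cacna1g (8.22% of all 14674 genes did so), and below for 5, among them Scn1a, Scn4b, Cacna2d2 and Cacna2d3 (7.82% of all genes). For nicotine the counts were 2 above, Cacnb3 and Cacna2d1 (3.84%), and 5 below, Scn1a, Scn3a, Scn4b, Cacna2d2 and Cacna2d3 (3.00%). For arecoline none lay above (3.26%) and 1, Scn1a, lay below (3.76%). The share over all genes was not counted for arecoline against caffeine or nicotine.

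The genes of known partners were also counted, among them the Cacng family, the intracellular Fgf genes that bind sodium channels, ankyrins and presynaptic Rims genes. Of 37 such genes 35 were tested, and none passed in any of the 7 comparisons by edgeR. Fgf13, whose product binds sodium channels, gave a log2 fold change of 0.62 ± 0.19 with caffeine (edgeR adjusted p = 0.075).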

How the data were processed

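Poly(A) RNA of mouse nucleus accumbens was sequenced in 16 libraries. The deposited table gives, for each gene and library, estimated counts (86.6% to 90.4% of values whole) and FPKM values that the authors computed. Per the submitters' processing notes, fastp 0.18.0, Bowtie2 2.2.8, HISAT2, StringTie 1.3.1, RSEM and mm10 were used, with no role or order given; the labels do not state strandedness. The expected counts as deposited were rounded. Counts of 7 channel genes were not whole in at least 1 library, so reads shared with near-identical genes may have been split there. The main test was edgeR 4.0.16 (R 4.3.3; quasi-likelihood, filterByExpr, TMM scaling, a mean per group over all 16 libraries), with Benjamini-Hochberg adjustment over 14674 genes and a threshold of 0.05. DESeq2 1.42.0 and limma 3.58.1 served as alternatives. The procedure was also run on simulated counts with the same spread for every gene, which does not cover genes as variable between libraries as Scn4b. CPM compares libraries within a gene and FPKM compares genes; FPKM keeps the authors' own scaling, so a CPM and an FPKM ratio can differ. Genes given in every library were those past the threshold, the 3 highest of each class by FPKM, and the 3 with the widest ratio of highest to lowest CPM, of those above 0 in every library. The genes, lists and libraries called apart were chosen with earlier results of these data known. Coordinates and older symbols came from GENCODE (GRCm38). Some genes counted here are not reported by name, and the outlier counts leave them out. Libraries of 1 group were compared in pairs, and each pair differed by more than counting noise.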

Additional observations from a re-analysis of the deposited data

Results flagged for a closer look

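In each group of 4 libraries, the highest or lowest CPM of each of 27 genes was compared with the other 3 by Dixon's ratio of gap to range. Of 108 groups tested, 10 held a library that stood apart, where chance gives about 1 in 20 for a single test on normal values. The genes share the same 16 libraries, so the 108 tests are not independent and the count was not tested against that rate.

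Saline replicate 3 stood above the other saline libraries for 4 genes: Scn4b at 616 CPM (others 95.7 to 118), Cacna2d3 at 168 (52.7 to 54.7), Cacna2d2 at 67.8 (26.7 to 27.5) and Cacnb1 at 193 (114 to 125). It was the saline library with 8518 CPM of medium spiny neuron markers, and the part of these cells in the values was not tested. Nicotine replicate 2 stood above the other nicotine libraries for 3 genes: Scn9a at 33.4 CPM (others 2.23 to 4.44), Cacna1a at 10.8 (5.20 to 5.45) and Cacna1b at 68.6 (53.9 to 55.5). It held 718 CPM of olfactory sensory neuron markers, whose part was not tested either.

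The last 3 lay elsewhere. Cacna2d3 was at 46.9 CPM in caffeine replicate 4 (others 27.0 to 28.7), the caffeine library with the most medium spiny neuron markers (1689 CPM). Cacna1d was at 15.1 CPM in caffeine replicate 1 (others 19.7 to 20.3), and Scn1a was at 62.7 CPM in arecoline replicate 1 (others 77.8 to 80.6).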

How the results depend on the processing

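The number of channel genes past the threshold depended on the setting. With DESeq2 it was 5 for caffeine against saline (2 by edgeR), 1 for nicotine against saline, 3 for arecoline against nicotine, 2 for arecoline against caffeine and 6 for any difference (each 0 by edgeR). With limma on log2(FPKM + 0.1) or log2(FPKM + 1) it was 1 for caffeine against saline, where 469 and 498 of all 14674 genes were called. Without the 4 libraries that stood apart, which leaves arecoline with 2, it was 4 for arecoline, 6 for caffeine and 1 for nicotine against saline, 3 for arecoline against nicotine, 1 for arecoline against caffeine and 5 for any difference. Those 4 include the 3 libraries richest in medium spiny neuron markers, so these counts depend on that choice. Leaving out 1 library at a time gave 0 to 5 for caffeine against saline (0 without saline replicate 2 or caffeine replicate 1, 2 or 3; 5 without arecoline replicate 3; 1 without nicotine replicate 3 or 4) and 0 to 1 for any difference (1, Scn1a, without caffeine replicate 4). Leaving out libraries of the groups not compared was chosen after seeing the data. Scn1a passed with caffeine in 19 of 23 alternatives (log2 fold change -0.87 to -0.53, adjusted p 0.0038 to 0.119) and Cacna2d2 in 12 of 23 (-1.69 to -1.09, 8.4e-04 to 0.118). The 23 include fits that left out only an arecoline or nicotine library and so kept every caffeine and saline library. All 4 alternatives in which Scn1a failed left out a saline or caffeine library. The cause of these changes in calls was not tested.

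With the replicate number as a block, edgeR called 4 channel genes for caffeine against saline and 1 each for arecoline against nicotine, arecoline against caffeine and any difference. Only 8 of 24 pairs of same-numbered libraries correlated over 0.1 (range -0.28 to 0.49) and 4 of 16 libraries correlated best with their own number, so the numbers were not taken to pair the samples.

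Over all genes, edgeR's 2, 599 and 0 calls for arecoline, caffeine and nicotine against saline became 448, 1474 and 105 with DESeq2, 98, 997 and 2 with the block, and 952, 1491 and 48 without the 4 libraries. The 13 calls for arecoline against nicotine became 609, 219 and 282, the 0 for arecoline against caffeine 375, 37 and 86, and the 167 for any difference 1649, 426 and 1194 (30 and 18 with limma). DESeq2 called 5 for caffeine against nicotine, where edgeR called 0. Leaving out 1 library at a time gave 0 to 198, 23 to 995 and 0 to 4 against saline, 2 to 298 and 0 to 67 for arecoline against nicotine and caffeine, and 1 to 351 for any difference. Of the 29 genes, 12, 7 and 11 took another sign of an uncalled difference under some alternative with arecoline, caffeine and nicotine. RLE factors and no filter kept every count of channel genes. Depth limits the scarce genes, and 3 were not tested.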

Other observations

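The channel genes lie in groups along 2 chromosomes. Chromosome 2 holds 8 of the 32, among them Scn3a, Scn2a, Scn1a, Scn9a and Scn7a between 65457118 and 66784914, and chromosome 9 holds 7 (GRCm38). Within the chromosome 2 group, levels ran from 48.9 FPKM for Scn2a to 0.169 FPKM for Scn7a, and 4 of these 5 genes lay below 0 with caffeine. Of all 29 channel genes tested, 17 lay below 0 with caffeine, as did 6 of the 8 sodium channel pore genes tested. The median log2 fold change over all genes was -0.02 in this comparison, and the share of all genes below 0 was not counted. Scn1a, which passed, stood at -0.67 ± 0.16 on the log2 scale (edgeR adjusted p = 0.033), Scn3a at -0.52 ± 0.15, Scn7a at -0.62 ± 0.60 and Scn9a at -0.45 ± 0.70, while Scn2a stood at 0.14 ± 0.11 (edgeR adjusted p = 0.061, 0.541, 0.717 and 0.470). On chromosome 9, Scn10a, with 238 counts over all libraries, gave -1.35 ± 0.77 with caffeine and did not pass (edgeR adjusted p = 0.286). Other genes there were Cacna2d2 at -1.56 ± 0.41, which passed, Scn4b at -3.09 ± 1.17, Scn2b at -0.18 ± 0.26 and Scn3b at 0.15 ± 0.13 (edgeR adjusted p = 0.042, 0.122, 0.685 and 0.477).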
